A study of Caenorhabditis elegans with 46 samples.

Results

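The DRM complex of *C. elegans* was examined at 394 promoter sites that lie in HOT regions. The study lists 1418 sites bound by DRM in late embryos, each 500 bp wide in the ce10 build. It marks those that coincide with an embryonic HOT (high occupancy target) region, and it assigns sites to the promoters of genes. A site was taken when it carried the HOT mark and lay in at least 1 promoter. These sites make up 27.8% of all DRM sites, 92.7% of the 425 sites with the HOT mark, and 35.5% of the 1111 promoter sites. Of them, 204 lie in the promoter of a single gene and 190 in a bidirectional promoter shared by divergent genes, for 582 genes in all. They were compared with the 717 promoter sites outside HOT regions.

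DRM is the worm form of the mammalian DREAM complex, which holds cell cycle genes silent in cells that have stopped dividing. It joins an E2F-DP heterodimer, EFL-1 with DPL-1, to the MuvB subunits LIN-9, LIN-37, LIN-52, LIN-53, and LIN-54 through the pocket protein LIN-35, the worm relative of p130. E2F-DP binds the G/C-rich CDE element and LIN-54 binds the A/T-rich CHR element. HOT regions are short stretches of open chromatin, mostly promoters of widely expressed genes, at which peaks of many unrelated factors are found in ChIP experiments, in part regardless of their own sequence motifs. A DRM peak in such a region can therefore be asked how high it is, whether it carries the CDE and CHR elements, and whether it remains without LIN-35.

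Chromatin immunoprecipitation with sequencing (ChIP-seq) was done on late embryos of the wild-type strain N2 (Bristol), from cultures grown for 72 h, and of *lin-35(n745)* mutants, from cultures grown for 96 h. The *n745* allele makes no LIN-35 protein, and in both genotypes embryos were aged for up to 3.5 h before freezing. In wild type, LIN-37 had 1 library, combined in its list with those of an earlier study, LIN-35 had 2, and each of the other 5 subunits had 3. In *lin-35* null, 3 libraries were made for each of the 6 subunits other than LIN-35, and the LIN-35 libraries of this genotype, a negative control, were not analysed here. Replicates were combined by the authors into 1 deposited list of peaks per subunit and genotype. The study describes the signal of the 2nd *lin-35* null replicate as seemingly too high next to the other replicates, and it cannot be taken out of the combined lists. The 7 wild-type lists hold from 1771 (DPL-1) to 2291 (LIN-35) peaks and the 6 *lin-35* null lists from 783 (EFL-1) to 1674 (LIN-9). The lists carry no read counts and no value of a single replicate, so depth is unknown, no replicate error can be given, and tests below count sites, which are not replicates. All *lin-35* null libraries used a newer protocol and most wild-type libraries an older one with selection of fragments on a gel, so genotype, growth time, and protocol cannot be told apart.

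Each peak was given its percentile by signal value within its own list, where 100 is the highest peak. A site took the highest of the peaks that overlapped it by at least 1 bp, and its height in wild type was the mean over those wild-type lists in which it had a peak. All 394 sites had wild-type peaks of DPL-1, EFL-1, and LIN-35, which follows from how DRM sites were defined. LIN-52 peaks were found at 391 sites, LIN-9 at 389, LIN-54 at 385, and LIN-37 at 380, and all 7 subunits at 363.

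HOT promoters held most of the highest DRM peaks of the genome. They were found at all heights, and the lowest of the 4 rank groups of DRM sites defined below took in 24.6% of them (20.4 to 29.2) and 20.4% of the other promoter sites (17.5 to 23.5). Of the 50 highest peaks of each wild-type list, between 33 (EFL-1 and LIN-54) and 36 (LIN-35, LIN-9, and LIN-52) lay at HOT promoter sites, and between 13 and 17 at promoter sites outside HOT regions. In the *lin-35* null lists, HOT promoter sites held from 28 (LIN-9) to 33 (DPL-1) of the 50 highest peaks. Of all peaks in a list, they held from 16.9% (LIN-54) to 22.4% (DPL-1) in wild type. In *lin-35* null this share was larger, from 24.7% (LIN-9) to 35% (LIN-37). The mean wild-type percentile had a median of 73.9 at HOT promoter sites, with quartiles of 46.3 and 91.6, and a median of 69.7 with quartiles of 49.8 and 83.4 at the others. With all DRM sites ranked by this height and cut into 4 groups of like size (rank groups), 155 HOT promoter sites (39.3%, 95% confidence interval by the Clopper-Pearson method 34.5 to 44.4) fell in the highest group, against 179 of the 717 others (25%, 21.8 to 28.3). The odds ratio was 1.95 (Fisher's exact test, which was two-sided throughout, p = 1.35e-06 after Benjamini-Hochberg adjustment across 17 tables). The intervals here and below cover counting error over sites only. Single-gene HOT promoters had higher sites, with a median of 81.2, than bidirectional ones, with a median of 67.8. Outside HOT regions the order was the other way round, 67.9 for single-gene and 72.2 for bidirectional promoters, and neither difference was tested.

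**Figure D1:**
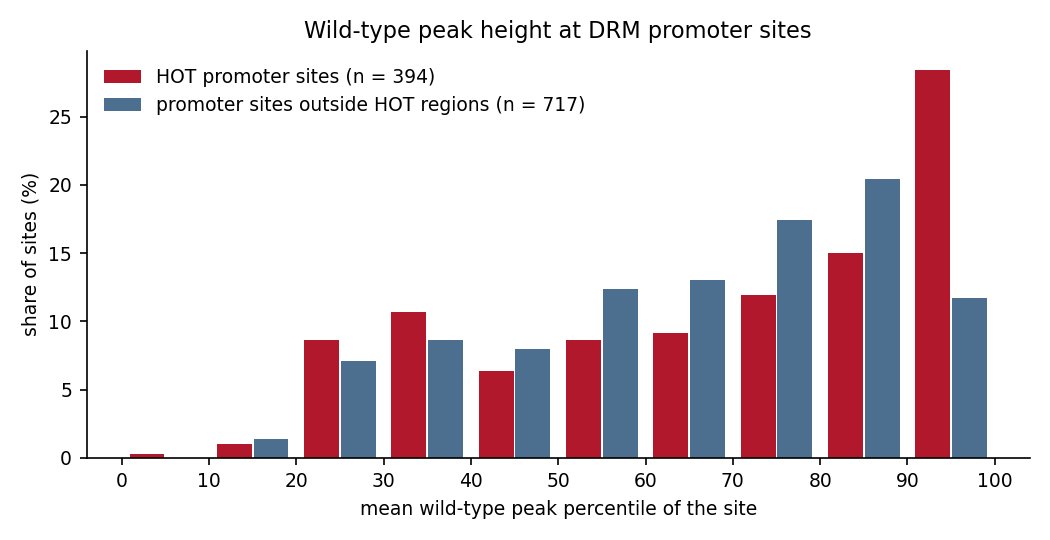
Share of sites (%, y axis) in each interval of 10 percentile units of the mean wild-type peak percentile (x axis), for HOT promoter sites (red) and promoter sites outside HOT regions (blue). Of the HOT promoter sites, 28.4% had a mean percentile of 90 or more, against 11.7% of the others, and 10.7% lay between 30 and 40, more than the 6.35% between 40 and 50.

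The 8 highest sites included promoters of 3 ribosomal protein genes, a tubulin gene, and a gene of protein secretion. The site of *emo-1* (chromosome V, 10897126 to 10897625) had percentiles from 99.9 (DPL-1) to 100 in wild type, with a median of 100, and *emo-1* (*sec-61.G*) encodes a subunit of the Sec61 channel that carries proteins into the endoplasmic reticulum. In *lin-35* null, its percentiles ran from 97.7 (EFL-1) through a median of 98.1 to 98.6 (LIN-52). The site shared by *K01G5.10* and *tasp-1*, a threonine aspartase gene, lies on chromosome III from 10758902 to 10759401 and had a percentile that rounds to 100 in all 7 wild-type lists. Its subunits parted in *lin-35* null, where E2F-DP stayed at 99.9 in both lists while MuvB ranged from 90.4 (LIN-37) to 94.0 (LIN-52). The *rpl-3* site, on chromosome III from 3867288 to 3867787, had wild-type percentiles from 99.7 (EFL-1) to 99.9 and *lin-35* null percentiles from 94.5 (LIN-37) through a median of 96.8 to 97.3 (LIN-52).

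At the *tba-2* promoter, of an alpha-tubulin gene, the site on chromosome I from 12966675 to 12967174 lay at or above 99.1 in all 13 lists. The same held for the site between *Y53F4B.11* and *Y53F4B.9*, on chromosome II from 15010316 to 15010815, where the lowest value was 99.4. Both thus ranked at the top of every list with and without LIN-35. The *rpl-35* site, on chromosome III from 7854360 to 7854859, was as high in wild type, with a median percentile of 99.7, but ranked from 81.5 (EFL-1) to 88.7 (LIN-9 and LIN-54) in *lin-35* null. The *fbxl-2* (*B0393.3*) site, on chromosome III from 4756891 to 4757390, had the same wild-type median of 99.7, and its *lin-35* null percentiles ran from 70.8 (EFL-1) through a median of 82.7 to 89.1 (LIN-9). At the site shared by *set-21*, of a SET-domain family, and the ribosomal protein gene *rpl-7A*, on chromosome IV from 4390408 to 4390907, EFL-1 had a *lin-35* null percentile of 89.1 and the other 5 subunits lay between 97.1 and 99.0. Since the lists differ in length, a lower percentile is a lower rank and not a measured loss of binding. Likewise, an equal or higher percentile in *lin-35* null is not a measure of unchanged or greater binding. The study reports that occupancy by E2F-DP and MuvB was impaired globally without LIN-35.

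Among the low HOT promoter sites, the subunits were not ranked alike. In the lowest rank group, with mean percentiles of 45.2 or less, the 97 HOT promoter sites had a median percentile of 48.0 for LIN-35, 36.1 for EFL-1, and 33.5 for DPL-1, but LIN-54, LIN-37, and LIN-9 had medians of 26.2, 25.9, and 25.5. LIN-52 stood between, at 38.7. The 146 promoter sites outside HOT regions in the same group had 36 for LIN-35 and 20.4 for DPL-1, and MuvB medians of 32.6 (LIN-9), 30.1 (LIN-37), 38.7 (LIN-52), and 38.5 (LIN-54). The median site thus had a LIN-35 percentile 23.4 points above the mean of its MuvB percentiles in HOT promoters, and 2.30 points above it elsewhere. In the highest rank group this difference was 0.412 points at HOT promoter sites. Over all heights, LIN-35 ranked at least 20 points above MuvB at 65 HOT promoter sites (16.5%, 13 to 20.5) and at 29 of the others (4.04%, 2.73 to 5.76). Of these sites, 26 of the 65 and 0 of the 29 were retained in *lin-35* null by the definition given below. This comparison was chosen after the values were seen and was not tested.

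**Figure D2:**
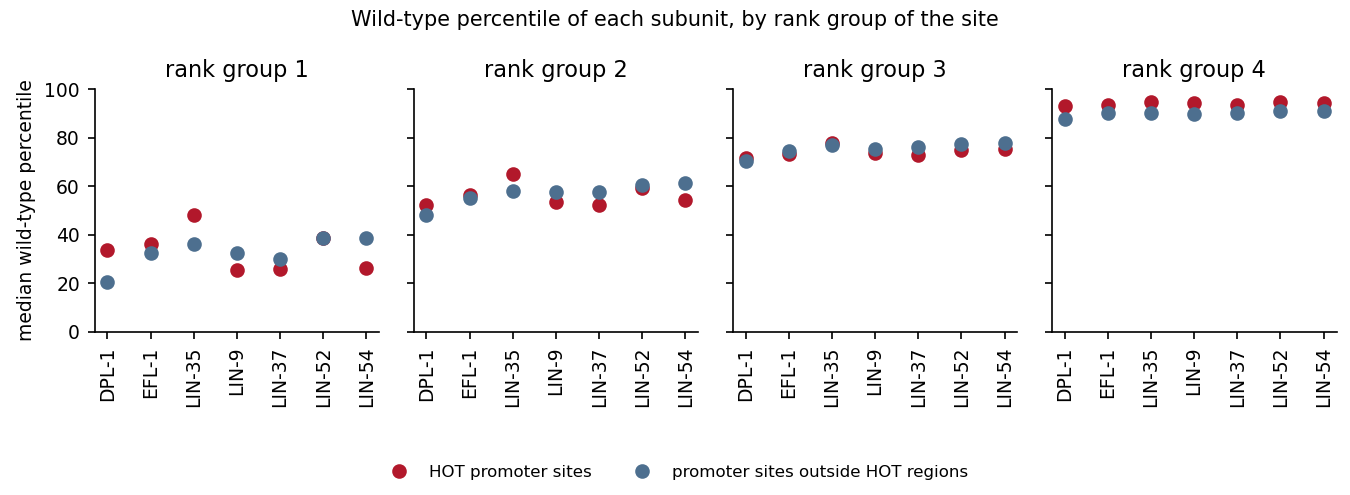
Median wild-type percentile (y axis) of each of the 7 subunits (x axis) in the 4 rank groups of DRM sites by mean wild-type percentile, from the lowest (1) to the highest (4), for HOT promoter sites (red) and promoter sites outside HOT regions (blue). In group 1, LIN-35 stands at 48.0 and LIN-9, LIN-37, and LIN-54 near 26 at HOT promoter sites, whereas in groups 3 and 4 the subunits lie close together.

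The promoter of *rpl-17*, shared with *aps-3*, shows this spread (it was chosen after its values were seen). The site, on chromosome I from 1155961 to 1156460, had wild-type percentiles of 66.2 for LIN-35, 51.4 for DPL-1, 39.5 for EFL-1, 40.8 for LIN-52, 27.3 for LIN-37, and 1.11 for LIN-9, and no LIN-54 peak. In *lin-35* null, LIN-9 had the highest of its percentiles, 44.9.

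The summits of the subunits lay together. The outermost of the 7 wild-type summits were a median of 20 bp apart at the 363 HOT promoter sites with all 7 peaks, and 21 bp apart at the 685 others. They lay within 100 bp of each other at 357 (98.3%) and 665 sites (97.1%), where 97.0% of all DRM sites with 7 peaks do so, an odds ratio of 1.79 with a 95% confidence interval from 0.712 to 4.5 (Fisher's exact test, adjusted p = 0.36). Between genotypes the summits of HOT promoter sites moved by a median of 8 bp (DPL-1 and EFL-1) to 12 bp (LIN-9 and LIN-37). The deposited summit is the middle of a peak of fixed width in each list.

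More HOT promoter sites than other promoter sites still had peaks in *lin-35* null embryos, for each of the 6 subunits. LIN-9 peaks were found at 363 of the 394 HOT promoter sites (92.1%, 89.0 to 94.6) against 505 of the 717 others (70.4%, 66.9 to 73.8), where 70.0% of all DRM sites have one. LIN-52 had peaks at 349 sites (88.6%) against 65.7% of the others and 65.7% of all sites. LIN-54 had them at 341 (86.5%) against 62.6%, which is also the share of all sites. LIN-37 had them at 308 (78.2%) against 50.6%, with 52% of all sites. For E2F-DP, DPL-1 peaks were found at 307 sites (77.9%) against 53.8% of the others and 56.6% of all sites, and EFL-1 peaks at 252 (64.0%) against 45.9%, with 46.9% of all sites. The odds ratios lay between 2.09 (EFL-1) and 4.92 (LIN-9), and the largest adjusted p of the 6 was 1.37e-08 (Fisher's exact tests). The shares follow the length of the *lin-35* null lists, from EFL-1 with the shortest to LIN-9 with the longest, except that DPL-1 and LIN-37 change places.

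**Figure D3:**
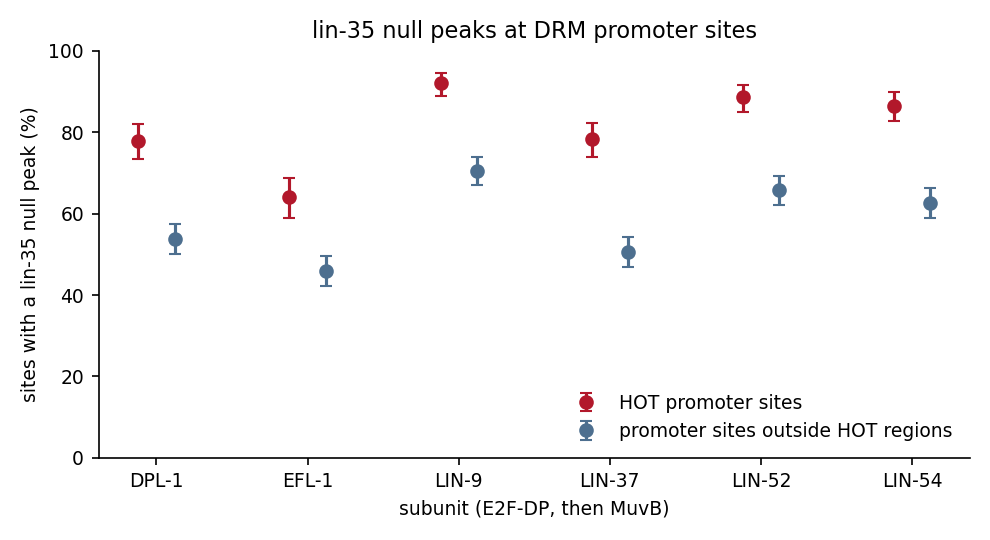
Share of sites with a *lin-35* null peak (%, y axis) of each subunit (x axis), at 394 HOT promoter sites (red) and 717 promoter sites outside HOT regions (blue), with 95% Clopper-Pearson intervals over sites. The intervals of the groups do not overlap for any subunit.

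Peaks of all 6 subunits remained at 237 HOT promoter sites (60.2%) and 282 of the others (39.3%), where the share of all DRM sites is 40.6%. No peak of any subunit was left at 25 HOT promoter sites (6.35%, 4.15 to 9.22) and at 184 others (25.7%, 22.5 to 29.0), where it is 26.7% of all DRM sites. The odds ratio for having none was 0.196 (Fisher's exact test, adjusted p = 2.02e-16). A site counted as retained when, in *lin-35* null, it had peaks of DPL-1 and EFL-1 together with 3 or 4 of the MuvB subunits. By this definition, 246 HOT promoter sites (62.4%, 57.4 to 67.2) and 298 others (41.6%, 37.9 to 45.3) were retained, against 43.4% of all DRM sites, an odds ratio of 2.34 (Fisher's exact test, adjusted p = 6.31e-11). Without the lowest 25% of each list, 54 HOT promoter sites and 251 others had no *lin-35* null peak. Retention describes which peaks were called, not their height.

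The difference lay mostly among low sites. In the lowest rank group, 28 of 97 HOT promoter sites (28.9%, 20.1 to 39.0) were retained, against 8 of 146 others (5.48%, 2.40 to 10.5). In the next group the counts were 31 of 58 (53.4%, 39.9 to 66.7) and 31 of 175 (17.7%, 12.4 to 24.2). In the third group the shares were 57.1% and 52.5%, and in the highest 89.7% and 81.0%, with intervals that overlap in both. Over the 4 groups, the Mantel-Haenszel odds ratio was 2.48. Whether the odds ratio itself differs between rank groups was not tested. No HOT promoter site of the highest group lacked a *lin-35* null peak (0 of 155, interval to 2.35%), and 6 of 179 others did.

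**Figure D4:**
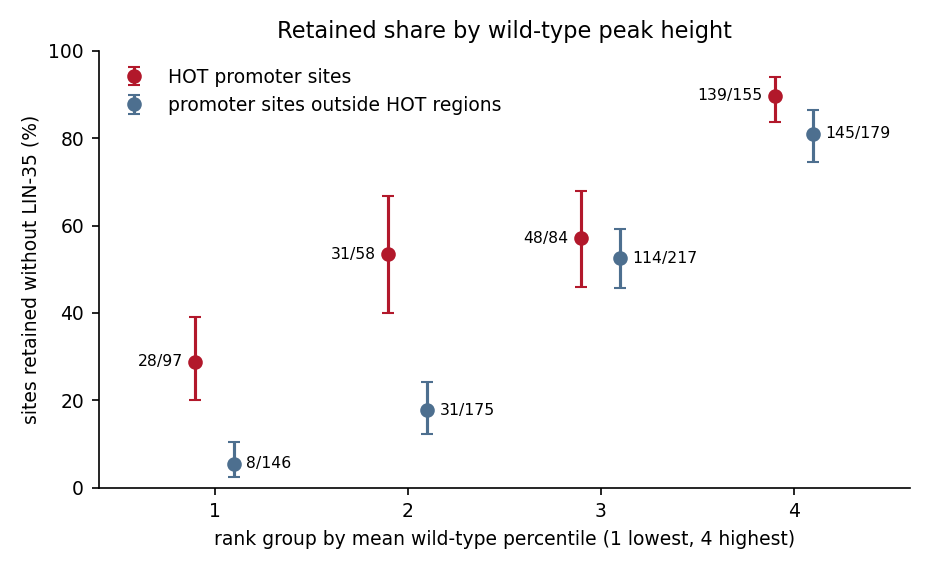
Share of sites retained in *lin-35* null (%, y axis) in 4 rank groups by mean wild-type percentile (x axis), at HOT promoter sites (red) and promoter sites outside HOT regions (blue), with 95% Clopper-Pearson intervals over sites and the counts beside the points. The groups stand apart in rank groups 1 and 2 and overlap in 3 and 4.

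The remaining HOT promoter sites mostly kept part of the complex. At least 3 MuvB subunits remained with 1 E2F-DP subunit at 55 sites (14.0%) and with neither at 40 sites (10.2%), against 6.14% and 12.6% of the other promoter sites. Over all DRM sites these shares were 7.83% and 9.8%, so the second was near the background. DPL-1 and EFL-1 remained with no MuvB subunit at 2 HOT promoter sites (0.508%, with 0.987% of all DRM sites). Peaks of every subunit but EFL-1 were found at 40 sites (10.2%), against 4.04% of the other promoter sites and 5.29% of all DRM sites. A peak of LIN-9 alone was found at 13 (3.3%), near the 3.03% of all DRM sites. Retained sites were spread over the autosomes, where between 62.5% (chromosome I) and 65.3% (chromosome IV) of HOT promoter sites were retained. On the X chromosome, 1 of 10 was retained and 5 had no *lin-35* null peak, against 1 and 14 of 20 promoter sites there outside HOT regions. This difference was not tested.

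At the 232 HOT promoter sites with peaks in all 13 lists, EFL-1 had a lower percentile in *lin-35* null at most sites, with a median difference of -22.2 points and a higher value at 31 sites (13.4%). DPL-1 and LIN-37 had median differences of -6.66 and -7.35. LIN-9, with a median difference of 0.528, ranked higher in *lin-35* null at 118 of the 232 sites, and LIN-52 and LIN-54 lay between, at -1.81 and -2.13. The 281 promoter sites outside HOT regions with all 13 peaks had median differences of -16.5 for EFL-1, -16.1 for LIN-37, and 0.832 for LIN-9. These differences are between ranks in lists of different length.

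The highest HOT promoter sites without any *lin-35* null peak lay in the third rank group. The *Y48G1C.8* site, on chromosome I from 108010 to 108509, had wild-type percentiles from 75.8 (DPL-1) through a median of 83.7 to 85.3 (LIN-52). The *klp-13* site, of a kinesin gene, on chromosome X from 5984543 to 5985042, had percentiles from 68.5 (EFL-1) to 86.6 (LIN-37), with a median of 78.6. Also on X, the *tag-52* site, from 3678502 to 3679001, had from 71.2 (LIN-37) to 88.6 (LIN-35), with a median of 79.4. All 3 thus had peaks of all 7 subunits in wild type and of none of the 6 in the mutant. Next came *pqn-51*, *Y44A6C.1*, and *hmg-1.2*, which encodes an HMG-box chromatin protein, with medians of 75, 73.9, and 73.5. Other sites without a *lin-35* null peak, named after their values were seen, include those of *skn-1*, a transcription factor of the stress response and of early embryos, with a mean wild-type percentile of 71.8, of *rps-5* (71.4), of *lin-13* (30.0), and of the histone gene *his-72* (25).

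At the other end, sites with low wild-type peaks kept all 6 subunits. The *egg-5* site, on chromosome I from 4171953 to 4172452, had wild-type percentiles from 5.42 (DPL-1) through a median of 17.9 to 45.7 (LIN-37) and *lin-35* null percentiles from 6.64 (EFL-1) through 35.9 to 60.8 (LIN-9). *egg-5* encodes a pseudophosphatase of the egg-to-embryo transition. At the site of *mcrs-1* and *atp-1*, a subunit gene of the mitochondrial ATP synthase, on chromosome I from 12652021 to 12652520, LIN-54 went from a percentile of 2.97 to 41, and LIN-9, without a wild-type peak, had a *lin-35* null peak at 55.9. The *mog-4* site had a wild-type median of 21 and a *lin-35* null median of 23.8, with EFL-1 at 0.383. *mog-4* encodes a DEAH-box helicase of splicing. The sites of *vps-37*, of *mex-1* with *W03C9.5*, and of *sec-61.B* with *trap-3* had wild-type medians of 29.3, 29.5, and 33.9. All 6 of these sites lay in the lowest rank group, where 13% of all DRM sites were retained. Without the lowest 25% of each list, *mog-4* and *vps-37* kept peaks of 3 subunits, and *egg-5*, *mcrs-1* with *atp-1*, and *sec-61.B* with *trap-3* of 5.

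Among sites with all 13 peaks, the mean percentile was most higher in *lin-35* null at the *atx-2* and *D2045.2* site, where LIN-52 and LIN-54 had percentiles of 65.7 and 52.8 in wild type and 90.5 and 87.2 in *lin-35* null. Its E2F-DP subunits were lower there, EFL-1 at 42.7 after 69.7 and DPL-1 at 39.9 after 41.1. The largest change at this site was that of LIN-37, from 24.8 to 89.2. Its outermost wild-type summits lay 215 bp apart, where the median HOT promoter site has 20 bp, so its wild-type percentiles may not all describe the same peak. The *egg-5* site, given above, was among the next 5. At the *lst-4* site, on chromosome IV from 14070101 to 14070600, LIN-9 went from 51.8 to 84.2, DPL-1 from 38.2 to 64.5, and EFL-1 from 52.1 to 41.1. At *hsp-1*, an Hsc70 chaperone gene, LIN-9 went from 50.7 to 80.2 and EFL-1 from 56.2 to 42.8, and at *tos-1* LIN-54 went from 49.3 to 76.8 and EFL-1 from 60.5 to 48.4. At these 3 sites all 4 MuvB percentiles were higher and the EFL-1 percentile lower without LIN-35. The *hrp-1* (*hrpa-1*) site, of an hnRNP protein gene, differed from them. Its wild-type percentiles ran from 65.2 (DPL-1) to 73.9 (LIN-52), its *lin-35* null percentiles from 84.2 (EFL-1) to 92.7 (LIN-52), and the ranges did not overlap. Higher percentiles at all these sites are higher ranks, not measured gains of binding.

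In 21 lists of gene names by role, 169 HOT promoter sites had at least 1 gene. The lists differed in how many of their promoter sites lay in HOT regions, where the share over all promoter sites was 35.5%, and in how many were retained. Over all HOT promoter sites 62.4% were retained, which is the background for the retained counts below. Counts over a list are descriptions and were not tested, and a site in a bidirectional promoter counts for each list that names either gene.

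The lists of large-subunit and small-subunit ribosomal protein genes together held the most HOT promoter sites. Of the promoter sites at large-subunit genes, 18 of 20 lay in HOT regions, and of those at small-subunit genes 14 of 14. Of these 32 sites, 28 were retained (87.5%, 71.0 to 96.5), against 218 of the other 362 HOT promoter sites (60.2%) and none of the 2 outside HOT regions. They were not among the high sites as a group. The mean wild-type percentile had a median of 53.2 for the large and 61.4 for the small subunit, and 19 of the 32 lay in the lower rank groups 1 and 2. Among those 19, 16 were retained (84.2%, 60.4 to 96.6), against 43 of 136 other HOT promoter sites of these rank groups (31.6%, 23.9 to 40.1). In the wild-type lists the 19 sites had a median percentile of 65.5 for LIN-35, 51.4 for DPL-1, and 48.9 for EFL-1, and of 31.8 for LIN-9 and 27.4 for LIN-54. In *lin-35* null their medians were 56 for LIN-9, 52.4 for LIN-52, 48.1 for LIN-54, and 39.1 for LIN-37, against 39.9 and 21.5 for DPL-1 and EFL-1. The EFL-1 median lies within the lowest 25% of its list, so retention at many of the 19 sites rests on a low EFL-1 peak. Examples are *rpl-7* (2.81) and *rpl-4* (6.13). Retention of the 19 was not counted without the lowest 25% of each list. The other 136 HOT promoter sites of these rank groups had wild-type medians of 54.1 for LIN-35, 38.3 for DPL-1, 41 for EFL-1, 37.3 for LIN-9, and 38.2 for LIN-54, and *lin-35* null medians of 32, 27.7, 53.4, and 43.2 for the last 4. In both sets LIN-9 and LIN-54 thus ranked above the E2F-DP subunits in *lin-35* null. In wild type they ranked well below them at the ribosomal protein sites. At the other 136 sites they were level with DPL-1 (LIN-54 at 38.2 and DPL-1 at 38.3). LIN-37 ranked slightly below DPL-1 in *lin-35* null in both sets, at 39.1 against 39.9 and at 29.7 against 32. Of the 32, 25 lay in bidirectional promoters, where a site cannot be assigned to one gene of the pair.

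The highest small-subunit sites were those of *rps-22* with *polh-1*, of *rps-12* with *ska-3*, and of *rps-19* with *hsr-9*. At *rps-22*, shared with a gene of translesion DNA polymerase eta, wild-type percentiles ran from 96.0 (LIN-37) to 98.4 (DPL-1 and LIN-35) and *lin-35* null percentiles from 44.1 (EFL-1) through a median of 70.7 to 75.6 (LIN-52). At *rps-12* they ran from 89.3 (LIN-54) to 98.3 (EFL-1) and from 63.3 (EFL-1) to 80.2 (LIN-9). At *rps-19* they ran from 70.6 (DPL-1) to 77.5 (EFL-1 and LIN-35) and from 35.4 (EFL-1) to 85.8 (LIN-9). EFL-1 was the lowest in *lin-35* null at all 3. The 4 ribosomal protein sites that were not retained were *rps-5*, without any *lin-35* null peak, and those of *rps-29* with *snt-2*, *rpl-36.A* with *nuo-1*, and *rpl-17* with *aps-3*, with peaks of 3, 4, and 5 subunits.

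For the rest of the protein synthesis machinery, 8 of 17 sites at translation factor genes lay in HOT regions, and 6 of the 8 were retained. The *eif-3.C* site had wild-type percentiles from 97.1 (EFL-1) to 98.9 (LIN-52) and *lin-35* null percentiles from 91.7 (EFL-1) to 98.0 (LIN-52). The *eef-2* site, shared with *clsp-1*, whose product is the replication checkpoint protein claspin, was as high in wild type, from 96.5 to 98.9, but in *lin-35* null EFL-1 was at 12.4 while LIN-9 was at 83.5. At the site of *eef-1A.1*, a gene of the factor that brings tRNAs to the ribosome, shared with the clamp loader gene *rfc-4*, the *lin-35* null percentiles ran from 51.5 (EFL-1) to 79.0 (LIN-9).

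Protein folding genes were mostly in HOT promoters, with 12 of 15 sites of chaperonin, prefoldin, and heat shock genes, and 8 of the 12 were retained. The *sti-1* site, of an Hsp90 cochaperone, had the highest peak of all 6 *lin-35* null lists, at a percentile of 100, on chromosome V from 773177 to 773676. Its wild-type percentiles ran from 98.8 (LIN-54) to 99.8 (EFL-1), and it carried none of the 3 motif marks. The prefoldin sites *pfd-6* and *pfd-5* had wild-type medians of 92.6 and 91.5 and *lin-35* null medians of 90.5 and 77.1. Of 9 sites at DnaJ cochaperone genes, 6 were in HOT promoters and 4 of these retained, with *dnj-9* and *dnj-28* highest (wild-type medians of 89.1 and 87.7). For the proteasome, 8 of 14 sites were in HOT promoters and 4 of these retained. At *rpt-1* and *rpn-11* every *lin-35* null percentile of MuvB and E2F-DP was 89.9 or above, whereas the wild-type medians were 86.2 and 87.9. The *rpn-5* site is shared with the cohesin gene *scc-1* and had a *lin-35* null median of 93.6.

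Splicing genes had 15 of 17 sites in HOT promoters, of which 11 were retained. At *smu-1* all 13 percentiles lay between 95.5 and 98.3, and at *rsr-1* between 96.3 and 99.3. At *mog-3*, which was retained with 5 subunits, the wild-type percentiles ran from 85.1 to 96.2, but the *lin-35* null ones from 13.8 (EFL-1) to 53.6 (LIN-9), without a LIN-37 peak. Of 14 sites at genes of TFIID and RNA polymerase II, 6 were in HOT promoters and 2 of these retained, *rpb-11* (wild-type median 96.6, *lin-35* null median 91.7) and *taf-6.2* (95.4 and 93.1). All 6 sites at Mediator genes were in HOT promoters. The sites of *mdt-22* and *sop-3*, with wild-type medians of 96.2 and 88.8, were retained, and the other 4, all in the lower rank groups, were not. One of them, *mdt-18*, had MuvB percentiles from 59.7 to 75.6 in *lin-35* null, a DPL-1 percentile of 9.35, and no EFL-1 peak.

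**Figure D5:**
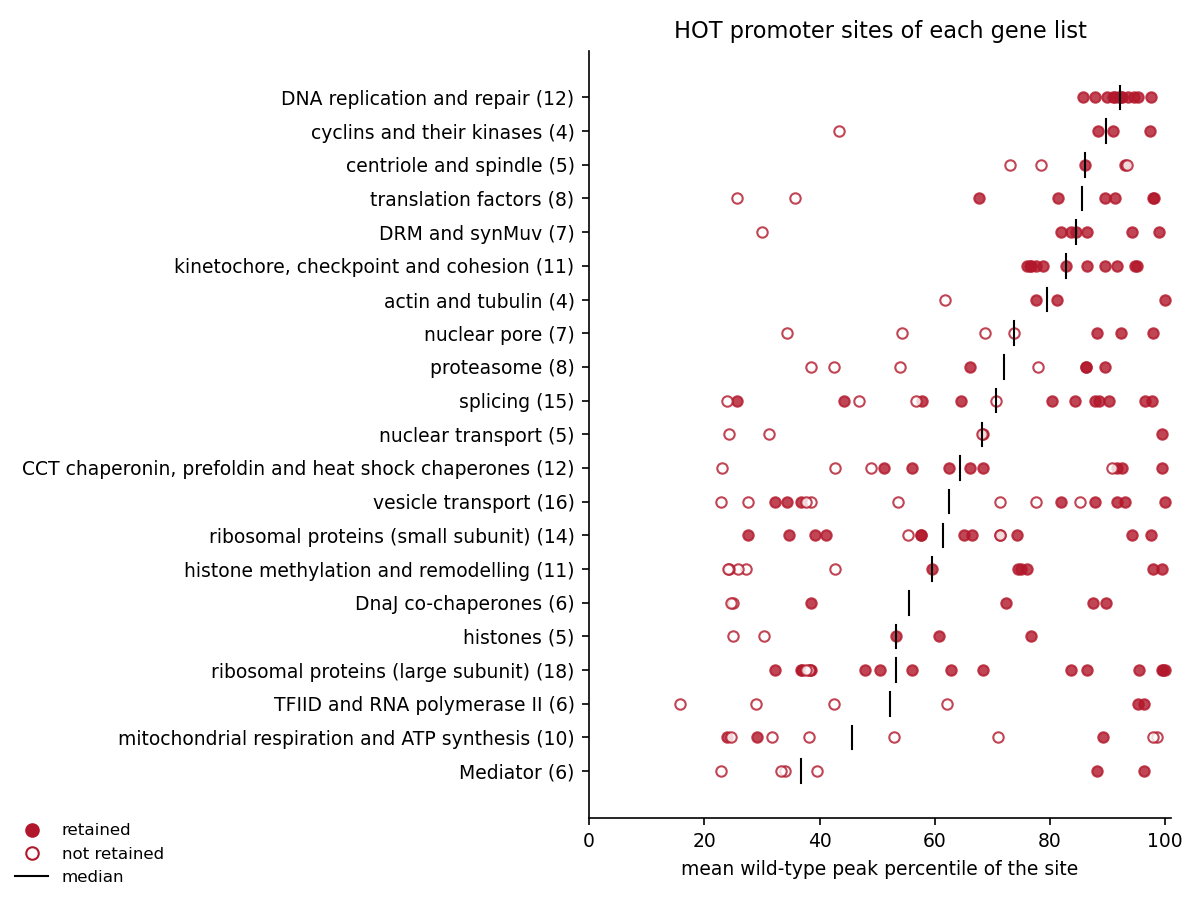
Mean wild-type percentile (x axis) of the HOT promoter sites of each of the 21 gene lists (y axis, number of sites in brackets, ordered by median). Filled points were retained in *lin-35* null, open points were not, and the black bar is the median. All sites of DNA replication and repair and of the kinetochore list are filled, while sites of ribosomal protein genes are filled also below a percentile of 50.

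Of 12 sites listed for genes of respiration and ATP synthesis, 10 were in HOT promoters and 3 of these were retained. In the lower rank groups 1 and 2, 2 of 6 were retained. Sites of respiratory genes outside the list, named after their values were seen, were retained with all 6 subunits at *cox-6B* (mean wild-type percentile 48) and at *nduv-3* with *mdf-2* (77.6), as was that of the mitochondrial chaperone gene *hsp-60* (68.3). The *nduf-11* (*B0491.5*) site had wild-type percentiles from 97.8 (LIN-9) to 98.9 (EFL-1), yet its *lin-35* null percentiles ran from 24.6 (LIN-37) to 54.5 (LIN-9), without an EFL-1 peak. The *ant-1.1* site, of an ADP/ATP carrier gene, likewise lacked EFL-1, with the other subunits between 37.8 and 71.2, after 93.6 to 99.4 in wild type. Both belong to the 16 of 155 sites of the highest rank group that were not retained. At *cox-5A* (*cco-2*), which was retained, EFL-1 was at 45.8 and MuvB between 80.3 and 87.3.

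Cell cycle genes are the targets for which DREAM is best known, and their lists differed in how many sites were retained. All 12 HOT promoter sites at DNA replication and repair genes were retained, and so were all 11 of the list for the kinetochore, spindle checkpoint, and cohesion. The first had a median of 92.1 and lay entirely in the highest rank group, where 89.7% of HOT promoter sites were retained, and the second had a median of 82.7. The lists were drawn from gene names and are not complete. The kinetochore gene *ska-1*, which its list does not hold, had a HOT promoter site with a mean wild-type percentile of 78.7 and *lin-35* null peaks of 3 subunits, and was not retained. Likewise, the DNA repair gene *agt-2* is missing from its list. Its HOT promoter site, shared with *F09E5.3*, had a mean wild-type percentile of 53.5, lacked a *lin-35* null EFL-1 peak, and was not retained. Outside HOT regions, 10 of 19 and 6 of 9 promoter sites of these lists were retained. Some retained sites of the kinetochore list rested on low peaks. Without the lowest 25% of each list, the sites of *kbp-3* with *nurf-1* and of *wapl-1* with *htz-1* kept peaks of 4 subunits. Having lost EFL-1 (3.70 and 18.4), they no longer counted as retained. Nor did the *mix-1* site, where EFL-1 was at 20.4. At *pri-2*, a DNA primase gene, the wild-type percentiles ran from 91.0 (LIN-54) to 99.1 (EFL-1) and the *lin-35* null ones from 99.6 (EFL-1) to 99.9. The *pcn-1* site, of the sliding clamp PCNA, had wild-type percentiles from 92.5 (EFL-1) to 95.3 (LIN-35) and *lin-35* null ones from 96.2 (EFL-1) to 99.4 (LIN-52). At *mdf-1*, a spindle checkpoint gene, the wild-type percentiles ran from 91.3 to 96.9, and in *lin-35* null from 3.67 (LIN-37) to 54.7 (DPL-1), so it was retained with low peaks. At *knl-3* the *lin-35* null percentiles ran from 63.0 (EFL-1) to 84.8 (LIN-9), and at *kbp-4*, shared with *rab-18*, from 83.0 (LIN-37) to 90.4 (LIN-9). The *kbp-3* site, shared with *nurf-1*, had wild-type percentiles from 71.3 to 81.7 and *lin-35* null ones from 3.70 (EFL-1) to 57.2 (LIN-9). The study, by contrast, counts *kbp-3* among genes where it detected neither E2F-DP nor MuvB without LIN-35.

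Of 4 HOT promoter sites of cyclins and their kinases, 3 were retained, and that of *cdk-7*, with a mean wild-type percentile of 43.3 and *lin-35* null peaks of 2 subunits, was not. The *wee-1.3* site had *lin-35* null percentiles of 92.3 or above. At the promoters of *cyb-1*, a B-type cyclin gene that shares its site with the origin recognition gene *orc-5*, and of *cye-1*, the cyclin E gene, E2F-DP ranked above MuvB in *lin-35* null. At *cyb-1*, DPL-1 and EFL-1 were at 87.5 and 84.8 and MuvB between 49.6 and 65.4. At *cye-1*, they were at 71.3 and 66.3 and MuvB between 19.7 and 52.1. Of the centriole and spindle list, 5 of 17 sites were in HOT promoters and 2 were retained, those of *klp-18* (*lin-35* null median 95.2) and *spd-1* (71.1). The *sas-5* site, with wild-type percentiles from 88.6 to 98.5, had *lin-35* null peaks of 4 subunits, none above 24.6, and none of these was left when the lowest 25% of each list was taken out.

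DRM subunit and related synMuv genes had 7 of 9 promoter sites in HOT regions. The sites of *efl-1*, *lin-36*, *lin-9*, *lin-53*, *lin-54*, and *lin-35* were retained and that of *lin-13* was not. This list is not complete either and does not hold *lin-38*. The HOT promoter site of *lin-38*, shared with *mrpl-37*, had a mean wild-type percentile of 45.8. It had *lin-35* null peaks of 5 subunits, lacked EFL-1, and was not retained. At *efl-1* the *lin-35* null percentiles ran from 80.6 (EFL-1) through a median of 87.6 to 93.7 (DPL-1). At *lin-36*, with wild-type percentiles from 92.5 to 95.9, they ran from 5.07 (LIN-37) to 46.6 (LIN-52), and without the lowest 25% of each list 3 subunits had peaks. At the *lin-54* site, shared with *rpl-12*, MuvB lay between 90.3 and 94.2 and EFL-1 at 59.0. The wild-type median was 86.8 at the *lin-9* promoter and 81.8 at the *lin-35* promoter, and the *lin-35* null medians were 49.7 and 65.9. EFL-1 was at 19.2 at the *lin-9* site in *lin-35* null. Without the lowest 25% of each list, this site kept peaks of 5 subunits, had lost EFL-1, and no longer counted as retained.

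Of 17 sites at genes of histone methylation and remodelling, 11 were in HOT promoters. Of these, 6 were retained (54.5%), near the 62.4% of all HOT promoter sites. The *mes-2* site, of the worm E(z) methyltransferase, had a wild-type median of 98.2 and a *lin-35* null median of 99.6. These are ranks within lists. By ChIP-qPCR the study found most DRM subunits significantly reduced at this promoter without LIN-35, though several stayed above the negative control. All 5 sites at histone genes were in HOT promoters, and those of *htz-1* with *wapl-1*, *his-67* with *his-68*, and *his-37* were retained. Histone genes have near-identical copies, and up to 2 alignments were reported for a read, so peaks there may include reads of other copies. The same holds for *act-1* with *act-2*, actin genes whose site had *lin-35* null percentiles from 53 (EFL-1) to 84.4 (DPL-1). At *tbb-1*, a beta-tubulin gene, they ran from 47.3 (EFL-1) to 89.3 (LIN-9).

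Of the transport lists, 7 of 19 sites at nuclear pore genes were in HOT promoters, close to the background of 35.5%, and *npp-19*, *npp-3*, and *npp-12* were retained. At *npp-19* all 13 percentiles lay between 96.9 and 98.8. For nuclear transport, 5 of 7 sites were in HOT promoters. The importin gene *imb-3* was high in every list (97.8 or above), *ran-1*, of the Ran GTPase, had a *lin-35* null median of 71.7, and *imb-1* lacked EFL-1. For vesicle transport, 16 of 23 sites were in HOT promoters and 8 of these retained. At the site of *cogc-2* and *klp-18*, all *lin-35* null percentiles were 90.6 or above.

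The study marks sites with a conserved CDE, a conserved CHR, or the combined CDE/CHR motif found *de novo* in DRM sites. HOT promoter sites carried the single elements more often and the *de novo* motif less often than other promoter sites. The CDE mark was found at 262 HOT promoter sites (66.5%, 61.6 to 71.1) and 336 others (46.9%, 43.2 to 50.6), an odds ratio of 2.25 (Fisher's exact test, adjusted p = 6.08e-10). The CHR mark was found at 296 (75.1%) and 475 (66.2%), an odds ratio of 1.54 (adjusted p = 0.0031 by the same exact test), which was not past the threshold among single-gene promoters alone (1.43, adjusted p = 0.0717) or bidirectional ones alone (1.40, adjusted p = 0.213). The *de novo* mark was found at 160 (40.6%) and 391 (54.5%), an odds ratio of 0.570 (adjusted p = 1.69e-05 by the same exact test). Among single-gene promoters alone this was 0.779 (adjusted p = 0.2 by the same exact test).

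The *de novo* mark followed peak height in HOT promoters. It was carried by 7 of 97 sites of the lowest rank group (7.22%), 9 of 58 of the next (15.5%), 38 of 84 of the third (45.2%), and 106 of 155 of the highest (68.4%). At promoter sites outside HOT regions the shares were 35.6%, 43.4%, 55.8%, and 79.3%. The CDE mark showed no such course in HOT promoters, with shares from 64.9% to 67.9% in the 4 groups, whereas outside HOT regions they went from 33.6% in the lowest to 57.5% in the highest.

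Retention within HOT promoters was compared by mark. Sites with the *de novo* mark were retained more often, 114 of 160 (71.2%) against 132 of 234 without it (56.4%), an odds ratio of 1.92 (Fisher's exact test, adjusted p = 0.00397). Within rank groups the direction turned, to a Mantel-Haenszel odds ratio of 0.408 (two-sided chi-square test, adjusted p = 0.00617), since in the upper 3 groups the sites without the mark were retained more often (95.9% against 86.8% in the highest). Retention did not differ detectably by CDE mark (162 of 262 with and 84 of 132 without, odds ratio 0.926, 0.600 to 1.43, adjusted p = 0.789) or CHR mark (odds ratio 0.954, 0.594 to 1.53, adjusted p = 0.904), nor between bidirectional and single-gene promoters (114 of 190 and 132 of 204, odds ratio 0.818, 0.544 to 1.23, adjusted p = 0.397), all by Fisher's exact tests. With any 1 subunit enough for retention, the direction for bidirectional promoters turned and passed the threshold (odds ratio 2.53, adjusted p = 0.0486 by the same exact test), and within rank groups it was 1.28.

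Outside HOT regions, sites with the CDE mark were retained more often, 167 of 336 (49.7%) against 131 of 381 (34.4%), an odds ratio of 1.89 (1.40 to 2.55). The odds ratio in HOT promoters was 0.491 times this (two-sided chi-square test of the difference by Woolf's method, adjusted p = 0.0328 over 4 such tests). Within rank groups the ratio was 0.63 (chi-square test, adjusted p = 0.537). For CHR, *de novo*, and bidirectional promoters the ratios of odds ratios were 0.784, 1.03, and 0.753 (chi-square tests, adjusted p = 0.537, 0.918, and 0.537).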

How the data were processed

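ChIP-seq peaks of DRM subunits in late embryos (7 in wild type, 6 without LIN-35) were analysed, from 13 lists and the labels of 46 samples. Reads were mapped to ce10 by the authors with Bowtie 1.1.2, reporting at most 2 alignments, and peaks were called with SPP against input and kept by IDR at 1% across replicates. Each peak of a deposited list has a signal value from SPP, which was turned into a percentile within the list, and a summit offset (other deposited columns were not used). Sites, HOT and motif marks, and promoter assignments were the study's. Of 582 genes, 580 had a symbol in the reference names, and current symbols were given in brackets or in place of sequence names. The members, lists, and tests were chosen with earlier results of these data known.

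Fisher's exact test (two-sided) was used to compare shares, and its p-values were adjusted across 17 tables (Benjamini-Hochberg). Odds ratios were compared by Woolf's chi-square test, adjusted over 4, and rank groups were pooled by the Mantel-Haenszel method. Python 3.11.15, numpy 2.4.6, scipy 1.17.1, and matplotlib 3.10.9 were used, and the steps were tested on simulated data. Named sites followed a rule: the 8 highest in wild type, the 6 highest without a *lin-35* null peak, the 6 lowest with all 6, the 6 whose percentile was most higher in *lin-35* null among sites with all 13 peaks, up to 3 highest per gene list, and sites of genes the study names. Sites named outside this rule were chosen after their values were seen. Alternatives changed the overlap, list threshold, peak width, definition of retained sites, lists, and sites compared. No ce10 sequence was used here, and input libraries were not analysed.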

Additional observations from a re-analysis of the deposited data

Results flagged for a closer look

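The relation of the CDE mark to retention differed between HOT promoter sites and promoter sites outside HOT regions by the test of the difference itself, with a ratio of odds ratios of 0.491 (0.926 against 1.89, adjusted p = 0.0328 by the chi-square test of Woolf). It lost significance under 4 of 7 alternatives, and within rank groups by wild-type height the odds ratios were 0.858 and 1.36.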

How the results depend on the processing

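No paired analysis was possible because the lists hold no values of single replicates, so the replicate numbers of the labels have no columns, and leaving out a replicate was not possible either. Over 21 results and 103 alternatives, 81 kept their direction and side of the threshold, 7 lost significance, and 15 changed direction. The higher retained share (odds ratio from 1.85 to 5.1 over 10 alternatives), the lower share without any peak, the greater height, and the higher share of each subunit's peaks in HOT promoters held under every alternative tried for them. Without the lowest 25% of each list, 198 HOT promoter sites (50.3%) and 253 others (35.3%) were retained, and 54 and 251 had no *lin-35* null peak.

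Among marks compared between groups, CHR gave 1.43 in single-gene and 1.40 in bidirectional promoters, and *de novo* 0.779 in single-gene promoters, all past the threshold no longer. For retention within HOT promoters, CHR gave 1.01 with the lowest 25% left out, 1.12 with all 6 subunits needed, and 1.77 with any 1 enough. The *de novo* mark gave 0.725 with any 1 enough and 0.408 within rank groups, where the turned direction also passed the threshold, and bidirectional promoters gave 2.53 (Fisher's exact test, adjusted p = 0.0486) and 1.28 under the same settings. Summits within 50 bp gave 0.996. For differences of odds ratios, whose alternatives were chosen after seeing the data, CDE gave 0.512 with 50% overlap, 0.525 with the lowest 25% left out, 0.364 with any 1 subunit enough, and 0.63 within rank groups. The *de novo* mark gave 0.984, 0.981 with all 6 needed, 0.658 with any 1 enough, and 0.516 within rank groups. CHR gave 1.25 with any 1 enough, and bidirectional promoters 1.24 with any 1 enough and 1.46 within rank groups. The causes of the other changes were not tested. Of 81 named sites, 19 had another number of *lin-35* null peaks without that lowest 25% and 0 under the other list settings. Depth cannot be read from the lists.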
